A study of Mus musculus with 4 samples.

Results

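Secreted signals of type 2 immunity and repair were followed through the immune and endothelial droplets of the mouse liver, namely the type 2 cytokines *Il4*, *Il5* and *Il13*, the T cell growth factor *Il2*, and amphiregulin (*Areg*), a ligand of the epidermal growth factor receptor. They were chosen by symbol, and the 5 genes are among the 33696 in the count tables, each found under 1 identifier (ENSMUSG00000000869 for *Il4*, ENSMUSG00000036117 for *Il5*, ENSMUSG00000020383 for *Il13*, ENSMUSG00000027720 for *Il2* and ENSMUSG00000029378 for *Areg*).

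CD45+ cells were taken from the liver of *Stab2-CrexERT2*; *R26-LSL-tdT* animals at an age of 2 months, after tamoxifen at E9.5. A tdTomato+ and a tdTomato- sort were each run as 1 gene expression library with 1 γδ T cell receptor library. Both sorts came from mice with the same alleles and the same tamoxifen dose. The Cre recombinase is expressed from *Stab2*, which marks yolk sac endothelium and also the sinusoidal endothelium of the liver, so tdTomato records recombination in a cell or in its ancestors. By the paper's account, the sort took all γδ T cells and a minor part of the other cells. The number of cells in a group thus reflects the gate as well as the liver. The tdTomato+ sort was batch 1 and the tdTomato- sort batch 2 in the labels, and sort and batch cannot be told apart. With 1 library per sort there was no replicate and no test: every interval below is a 95% interval (exact Poisson for a level, exact binomial for a share, exact conditional binomial for a ratio) that covers counting error only. Where no cell of a group had a UMI, the limit given is that of 3 counts, and it limits the share of cells with a UMI, not of cells that express the gene.

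After filtering, 17509 tdTomato+ and 18173 tdTomato- cells remained, with medians of 9083 and 7168 unique molecular identifiers (UMIs, counts of captured transcripts). The libraries held 203366009 and 156771260 UMIs in all. The libraries shared 84 barcodes, 80 of them among kept cells. Levels are CPM, a gene's UMIs summed over a group and scaled to 1000000 UMIs of that group, and a positive cell has at least 1 UMI of the gene. Groups are clusters named after markers that excluded the 5 genes. The γδ T-like clusters held 376 tdTomato+ and 7968 tdTomato- cells, so other cells were the larger part of both libraries. Much of the tdTomato+ library was endothelial: 5352 endothelial-like cells against 6 in the tdTomato- library, and 3699 droplets with T cell and endothelial RNA together against 31. The endothelial-like cells had *Ptprc* (CD45) at 13.7 CPM and *Stab2* at 4065 CPM, which goes against the CD45+ label of the sort.

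IL-4 and IL-13 signal through receptors that share the chain encoded by *Il4ra* and drive allergic and antihelminth responses, while IL-5 supports eosinophils. They are made by T helper 2 cells, group 2 innate lymphoid cells (ILC2) and, for IL-4 and IL-13, basophils and natural killer T (NKT) cells. IL-2 is made mainly by activated T cells and feeds cells that carry its receptor. Amphiregulin is made by ILC2, regulatory T cells and other lymphocytes in tissues and is known for its part in repair; its membrane form is cut by the protease encoded by *Adam17*.

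The 3 type 2 cytokine genes lie close together on chromosome 11 (GRCm38, GENCODE M21). *Il4* is at chr11:53602982-53618669 and *Il13* at chr11:53631324-53634702, both on the minus strand and 12.65 kb apart. *Il5* is on the plus strand at chr11:53720794-53725106, with *Rad50*, a DNA repair gene, between it and *Il13*. *Il2* (chr3:37120523-37125959, minus strand) and *Areg* (chr5:91139599-91148432, plus strand) lie elsewhere. The 150 bases before the annotated RefSeq start of each gene (GRCm38.p6) are shown because the members were detected together in some cells and apart in others. They cover chr11:53618666-53618815 for *Il4*, chr11:53634703-53634852 for *Il13*, chr11:53720644-53720793 for *Il5*, chr3:37125955-37126104 for *Il2* and chr5:91139449-91139598 for *Areg*, each written 5′ to 3′ on the gene's strand. Capitals mark GATA (the core bound by GATA factors), GGAAA (the core bound by NFAT), TGACGTCA (a cAMP response element), TGANTCA (an AP-1 site) and TATAAA, searched on both strands.
Il4: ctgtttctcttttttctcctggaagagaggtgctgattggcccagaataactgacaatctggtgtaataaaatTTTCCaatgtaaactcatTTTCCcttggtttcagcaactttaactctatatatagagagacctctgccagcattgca
Il13: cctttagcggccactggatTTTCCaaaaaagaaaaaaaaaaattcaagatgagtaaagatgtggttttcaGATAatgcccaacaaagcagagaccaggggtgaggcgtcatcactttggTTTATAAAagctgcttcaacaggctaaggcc
Il5: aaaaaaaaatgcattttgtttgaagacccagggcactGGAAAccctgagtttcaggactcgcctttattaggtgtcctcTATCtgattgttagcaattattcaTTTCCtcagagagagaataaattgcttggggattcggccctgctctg
Il2: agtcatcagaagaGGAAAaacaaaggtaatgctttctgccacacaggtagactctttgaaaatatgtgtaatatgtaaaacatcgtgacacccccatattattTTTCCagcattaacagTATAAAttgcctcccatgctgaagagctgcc
Areg: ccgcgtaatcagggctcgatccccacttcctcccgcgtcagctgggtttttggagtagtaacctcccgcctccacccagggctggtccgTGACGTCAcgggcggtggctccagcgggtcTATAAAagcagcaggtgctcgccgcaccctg

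GGAAA was found 2 times in the *Il4*, *Il5* and *Il2* windows and 1 time in that of *Il13*, against 37.63% of 32851 promoter windows with at least 1. GATA was found 1 time each in the *Il5* and *Il13* windows (35.74% of promoters). The *Areg* window was the one with TGACGTCA, a motif held by 1.361% of promoters, and it also held TATAAA (7.574% of promoters), as did the windows of *Il2* and *Il13*, the latter with overlapping matches on both strands. TGANTCA was in none of the 5 windows and in 4.243% of promoters. *Il4* has 2 starts in the table, of which 1 is shown. A match describes letters and does not show binding.

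Over all kept cells, *Il4* gave 4392 UMIs in 1110 tdTomato+ cells and 2577 UMIs in 853 tdTomato- cells. *Il5* gave 194 UMIs in 73 tdTomato+ cells and 5 UMIs in 2 tdTomato- cells. *Il13* gave 685 UMIs in 100 cells and 124 UMIs in 34 cells. *Il2* and *Areg* leaned the other way: *Il2* had 471 tdTomato+ and 1130 tdTomato- UMIs, and *Areg* 1974 and 4228. The totals mix all groups, whose sizes differed between the sorts. The plot of levels by group sets out where each gene was detected.

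**Figure D1:**
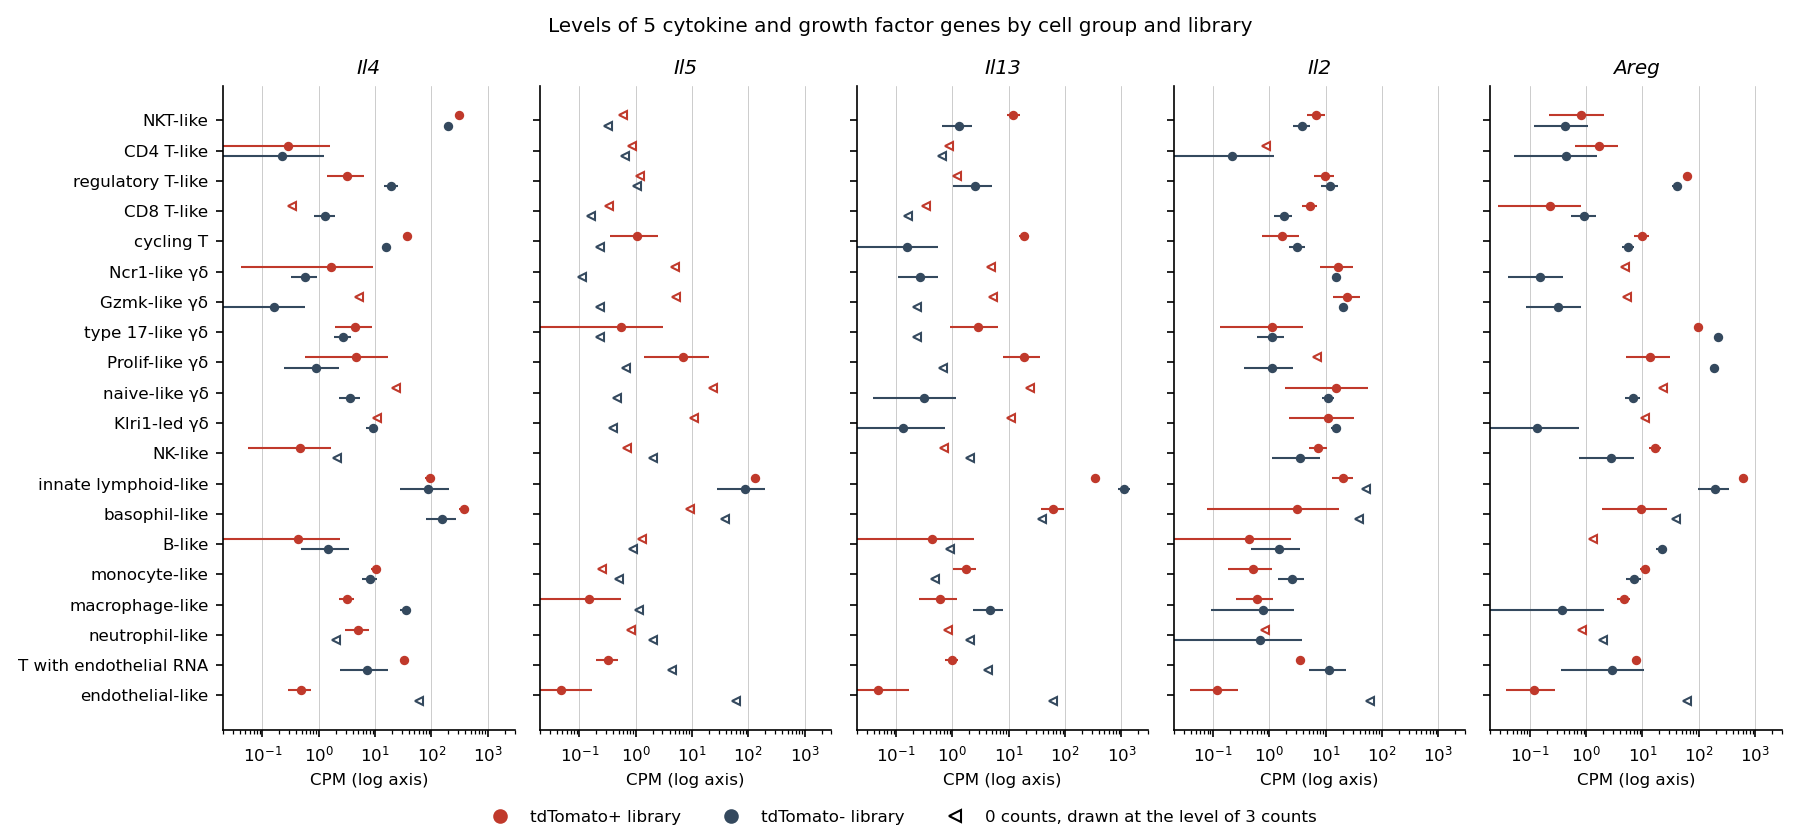
Level of each of the 5 genes, in CPM of summed UMIs with 95% Poisson intervals, in the cell groups of the tdTomato+ and tdTomato- libraries, on a log axis. Open triangles stand for 0 counts and are drawn at the level of 3 counts. *Il4* is highest in the NKT-like and basophil-like groups, *Il5* and *Il13* in innate lymphoid-like cells, *Areg* in innate lymphoid-like and type 17-like γδ cells, and *Il2* is at or below 24.3 CPM wherever it was counted.

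NKT-like cells held most of the *Il4* counts among cells without much endothelial RNA. These cells, 484 tdTomato+ and 1051 tdTomato-, were named from markers such as *Zbtb16*, the transcription factor PLZF that directs NKT cell development, at 241 and 218 CPM. They gave 1550 *Il4* UMIs in the tdTomato+ library, 312 CPM (296 to 327), and 1807 UMIs in the tdTomato- library, 193 CPM (184 to 202). *Il4* was detected in 302 tdTomato+ cells, 62.4% (57.9 to 66.7), and in 553 tdTomato- cells, 52.6% (49.5 to 55.7). In endothelial-like cells, which should lack the gene, 0.262% of cells had a UMI at a median of 7641 UMIs per cell, against medians of 9729 and 8284 UMIs in the NKT-like cells. With each cell thinned to 2000 UMIs, 28.8% of tdTomato+ and 24.0% of tdTomato- NKT-like cells were positive. Across all genes, *Il4* was the most enriched in the NKT-like cluster over the other cells, although it had no part in the clustering.

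A few cells carried much of the *Il4* signal. The top tdTomato+ NKT-like cell had 182 of the 1550 UMIs, and the next 4 had 137, 94, 82 and 64. The top tdTomato- cell had 44 UMIs. Positive cells had a median of 2 UMIs in both libraries. The first cell also had 17 *Cd3e* and 12 *Zbtb16* UMIs of 12727 in total.

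The *Il4* level in NKT-like cells was higher in the tdTomato+ library by 0.69 on the log2 scale (0.59 to 0.79). Among cells with under 2 UMIs of the endothelial gene list it was 0.14, given without an interval. This filter kept 162 of 484 tdTomato+ and 616 of 1051 tdTomato- cells. It also left out the top tdTomato+ cell, with 182 *Il4* and 2 endothelial UMIs, so it removed more than endothelial RNA. The endothelial list itself, 21 genes that were all detected, summed in NKT-like cells to 944 CPM (tdTomato+) against 207 CPM (tdTomato-). Per 100 UMIs of *Cd3e*, a T cell receptor complex gene, the *Il4* count was 28.7 against 15.1, and that of *Zbtb16* 22.3 against 17.1. The part of endothelial RNA in the difference was not tested beyond these values.

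The NKT-like cluster was mixed in its receptor genes. Cells with UMIs of *Trac*, *Trbc1* or *Trbc2* and none of *Trdc* were 440 and 676, with *Il4* at 321 CPM (305 to 338) and 224 CPM (212 to 236). Cells with UMIs of both receptor types were 27 and 332, with *Il4* at 65.0 CPM (38.5 to 103) and 134 CPM (121 to 147). Thus the ratio was positive in the first set and the reverse in the second. Cells with *Trdc* alone were 3 and 22, and *Il4* was detected in 2 and 11 of them. In the tdTomato- receptor library, 51 NKT-like cells had a TRGV1 contig and 22 of these were *Il4* positive, 43.1% (29.3 to 57.8).

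The invariant chain gave another way to reach NKT cells. *Trav11* encodes the variable part of the invariant NKT cell receptor, and cells with a *Trav11* UMI, a CD3 UMI and no *Trdc* numbered 27 and 20. *Il4* reached 131 CPM (101 to 167) and 147 CPM (105 to 199) in them, in 16 and 13 cells, a log2 ratio of -0.16 (-0.75 to 0.43). Of the 27 tdTomato+ cells, 16 lay among the T cells with endothelial RNA and held 50 of the 66 UMIs, so the gate and the cluster drew on different droplets.

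T cells with endothelial RNA carried more *Il4* counts than any other tdTomato+ group, 2091 UMIs in 537 of 3699 cells (14.5%, 13.4 to 15.7). The level was 32.2 CPM (30.8 to 33.6). The cluster led by *Kcnq5* held 1820 of these UMIs at 69.4 CPM (66.3 to 72.7), and 28.4% of its cells were positive. It had *Zbtb16* at 18.6 UMIs per 100 *Cd3e* UMIs, between the values of the *Tnfrsf4*-led cluster (3.03) and of the tdTomato+ NKT-like cells (22.3). Its *Il4* count per 100 *Cd3e* UMIs was 15.8, near the 15.1 of tdTomato- NKT-like cells and below the 28.7 of tdTomato+ NKT-like cells. The endothelial list reached 25740 CPM over all 3699 droplets, and these UMIs count in the CPM denominator but not in a ratio to *Cd3e*.

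Basophils are another innate source of IL-4. The basophil-like cluster, named from *Mcpt8* (the basophil protease, at 2302 and 505 CPM), had 39 tdTomato+ and 8 tdTomato- cells. *Il4* was detected in 33 of the 39 cells, 84.6% (69.5 to 94.1), with 121 UMIs and 375 CPM (311 to 449). In the tdTomato- library 5 of 8 cells were positive, with 12 UMIs and 155 CPM (80.3 to 272). The tdTomato+ level had an interval that overlapped that of NKT-like cells (296 to 327), so the order of these groups is not settled. The tdTomato- cells also had *Cd3e* at 518 CPM against 52.7 CPM in the tdTomato+ cells, which goes against a pure basophil label for those 8 cells.

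Taking instead every cell with a UMI of *Mcpt8* or *Cd200r3* gave 116 tdTomato+ and 110 tdTomato- cells. The *Il4* level of these cells was 88.9 CPM (74.5 to 105) against 16.5 CPM (10.1 to 25.5). The 77 and 102 of them outside the cluster had 12 and 8 *Il4* UMIs, 10.2 and 7.05 CPM. The cluster thus held 121 of the 133 tdTomato+ UMIs of the gate and 12 of its 20 tdTomato- UMIs.

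*Il4* was rare in CD4 T-like cells, with 1 UMI in 543 tdTomato+ and 1 UMI in 675 tdTomato- cells. This group had *Ifng* at 2.29 and 4.17 CPM, against 207 and 236 CPM in the regulatory T-like cluster. Its values therefore do not stand for all CD4 T cells. In the regulatory T-like cluster *Il4* gave 8 and 54 UMIs (3.19 and 19.2 CPM, log2 ratio -2.59, -3.87 to -1.51). All 54 tdTomato- UMIs fell in the 274 cells without a *Foxp3* UMI, and the cluster held 92 *Zbtb16* UMIs in that library against 11 in the tdTomato+ library. Among all γδ T-like cells, 8 of 376 and 85 of 7968 were positive, 2.13% and 1.07%, at 2.89 CPM (1.44 to 5.17) and 2.09 CPM (1.76 to 2.45). Of the 11 tdTomato+ UMIs, 8 lay in the 162 type 17-like cells and 2 in the 14 proliferating cells. Only 1 of the 8 was in the 43 type 17-like cells with a *Trdc* UMI, so the tdTomato+ share is not shown to be that of γδ cells. Within the γδ T-like cells, the cluster led by *Klri1*, which stays unnamed here, stood highest in the tdTomato- library. It had 68 UMIs in 37 of 905 cells, 9.03 CPM (7.01 to 11.4). In 34 tdTomato+ cells it had none, which at 3 counts allows a share of cells with a UMI of up to 8.82%. In CD8 T-like cells 24 UMIs were counted in the tdTomato- library and 0 in 912 tdTomato+ cells.

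Some myeloid values rested on 1 droplet. The tdTomato- macrophage-like level of 34.9 CPM came from 92 UMIs, 81 of them in a single droplet that also had 12 *Il13*, 47 *Zbtb16*, 5 *Cd3e* and 22 *C1qa* UMIs. In the tdTomato+ monocyte-like group 86 of 120 UMIs lay in a droplet that also had all 20 *Il13* UMIs of that group, 11 *Cd3e* and 44 *Lyz2* UMIs. Both droplets therefore held T cell and myeloid transcripts together.

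Innate lymphoid-like cells held most of the *Il5* and *Il13* counts and the highest tdTomato+ level of *Areg*. This group had 154 tdTomato+ and 9 tdTomato- cells, and was low for *Cd3e* in the tdTomato+ library (10.1 CPM) but not in the tdTomato- library (743 CPM), so the 9 cells carry T cell RNA and their label is uncertain. In the 154 cells, *Gata3*, the factor that ILC2 depend on, reached 448 CPM, and the alarmin receptors *Il1rl1* (the IL-33 receptor ST2) and *Il17rb* (an IL-25 receptor chain) reached 507 and 193 CPM. *Il7r* was at 966 CPM, *Il2ra* at 333 CPM and *Csf2*, which encodes GM-CSF, at 1027 CPM. *Rora*, which ILC2 need to develop, was at 1099 CPM, and *Il17a*, the cytokine of type 3 cells, at 115 CPM.

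*Il5* was nearly confined to these cells. It gave 159 UMIs in 51 of the 154 tdTomato+ cells, 33.1% (25.8 to 41.1), at 134 CPM (114 to 157). The 9 tdTomato- cells gave 5 UMIs in 2 cells, 86.4 CPM (28.0 to 202), and these were the only *Il5* UMIs of that library. Elsewhere in the tdTomato+ library *Il5* gave 21 UMIs in T cells with endothelial RNA, all in the *Tnfrsf4*-led cluster, and 5 in cycling T cells. NKT-like cells had 0 UMIs in both libraries, which at 3 counts allows shares of cells with a UMI of up to 0.620% and 0.285%, and the basophil-like cells had 0.

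*Il13* gave 401 UMIs in 48 of the 154 cells, 31.2% (24.0 to 39.1), at 338 CPM (306 to 373). It was concentrated in few cells: the top 5 had 77, 65, 56, 29 and 20 UMIs, together 61.6% of the counts. The tdTomato- value of 1106 CPM came from 64 UMIs, 62 of them in 1 cell, so no comparison of the libraries rests on it. *Il4* was also present, with 111 UMIs in 60 cells (39.0%), 93.6 CPM (77.0 to 113), below the basophil-like and NKT-like levels of the same library.

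*Areg* was the most widely detected member in innate lymphoid-like cells, with 726 UMIs in 80 of the 154 cells, 51.9% (43.8 to 60.1). Its level there, 612 CPM (569 to 659), was the highest of any group of 20 or more cells in either library. The top cell had 93 UMIs, followed by 58, 49, 48 and 35. After thinning to 2000 UMIs, 35.3% of cells remained positive. The 9 tdTomato- cells had 11 UMIs in 2 cells.

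The type 2 genes and *Areg* overlapped only in part within single innate lymphoid-like cells. Of the 51 *Il5* positive and 48 *Il13* positive tdTomato+ cells, 22 had both. *Areg* was detected in 31 of the 51 *Il5* positive, 33 of the 48 *Il13* positive and 31 of the 60 *Il4* positive cells. Over the whole group *Areg* was in 80 of 154 cells, 51.9%. Detection depends on depth, with a median of 7268 UMIs in these cells. *Il2* was found in 12 cells, and 5 of these had *Areg*. The plot of counts per cell shows how unevenly the UMIs were spread.

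**Figure D2:**
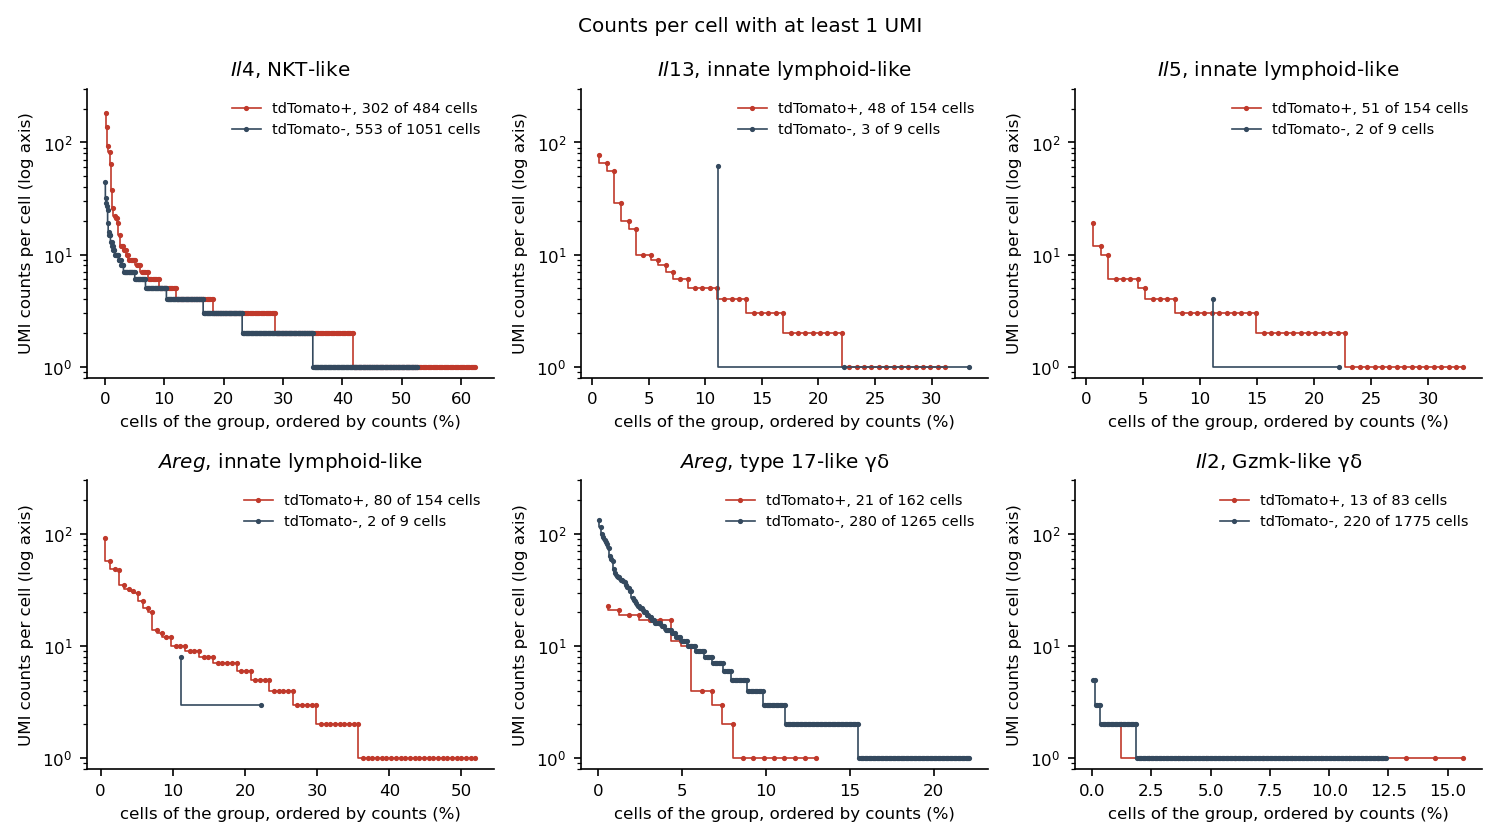
UMIs per cell, on a log axis, of *Il4*, *Il13*, *Il5*, *Areg* and *Il2* in the positive cells of NKT-like, innate lymphoid-like, type 17-like γδ and Gzmk-like γδ groups, ordered by count along an axis in percent of the cells of the group, with 1 line per library. Most positive cells have few UMIs, and single cells reach 182 for *Il4* in NKT-like cells and 134 for *Areg* in tdTomato- type 17-like γδ cells.

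*Il13* outside innate lymphoid-like cells lay in few cells, some with *Il4* and some without. Basophil-like cells gave 20 UMIs in 7 of 39 tdTomato+ cells, 62.0 CPM (37.9 to 95.8), and 6 of the 7 were *Il4* positive. NKT-like cells gave 60 UMIs in 11 tdTomato+ cells and 12 UMIs in 8 tdTomato- cells, and 10 of the 11 and all 8 were *Il4* positive. The level was 12.1 CPM (9.20 to 15.5) against 1.28 CPM (0.662 to 2.24), a log2 ratio of 3.23 (2.32 to 4.26), with 24 of the 60 UMIs in 1 cell. The ratio was 1.44 among cells with under 2 endothelial UMIs and 2.12 after thinning. Thinning left 2 positive cells in each library, and both values are given without an interval. In T cells with endothelial RNA *Il13* gave 63 tdTomato+ UMIs in 18 cells, of which 10 had *Il4*. The *Tnfrsf4*-led cluster held 52 of these UMIs and the *Kcnq5*-led cluster 7, and the top droplet had 40 *Il13* and 0 *Il4* UMIs. In all γδ T-like cells *Il13* gave 13 and 10 UMIs, and 4 of 4 tdTomato+ but 1 of 8 tdTomato- positive cells had *Il4*. The tdTomato+ UMIs lay in the type 17-like (5 UMIs) and proliferating (8 UMIs) γδ clusters. None was in the 43 tdTomato+ type 17-like cells with a *Trdc* UMI. The 14 tdTomato+ proliferating cells had 9 *Il1rl1* and 13 *Il17rb* UMIs, against 0 and 0 in 165 tdTomato- cells, so a γδ source of these UMIs is uncertain.

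Cycling T cells, named from proliferation genes, held 192 tdTomato+ and 547 tdTomato- cells. *Il4* reached 37.2 CPM (31.8 to 43.1) against 15.7 CPM (13.6 to 18.0), a log2 ratio of 1.25 (0.94 to 1.55) that fell to 0.25 among cells with under 2 endothelial UMIs. *Il13* gave 88 UMIs in 5 cells and 2 UMIs in 1 cell, a log2 ratio of 6.91 (5.02 to 9.98). A single tdTomato+ droplet held 76 of the 88 UMIs, together with 17 *Gata3* and 4 *Il1rl1* UMIs and no *Cd3e*, so this ratio is the value of 1 droplet. The endothelial list was at 672 and 101 CPM in these groups.

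Setting the members beside all genes showed how common such library differences were. In NKT-like cells 1.06% of 8417 genes with at least 10 CPM in a library were 2-fold or more higher in the tdTomato+ library and 0.76% lower: of *Il4* and *Il13*, the members tested, *Il13* was past 2-fold higher and neither was lower. In cycling T cells the shares were 2.34% and 0.965%, and both *Il4* and *Il13* were past 2-fold higher. In the regulatory T-like cluster they were 1.96% and 0.963%, and of *Il4*, *Il2* and *Areg* only *Il4* was past 2-fold, lower in tdTomato+. In type 17-like γδ cells 3.55% were higher and 3.55% lower, and the member tested, *Areg*, was lower. Ratios under 4 settings are drawn in the plot of ratios between the libraries.

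**Figure D3:**
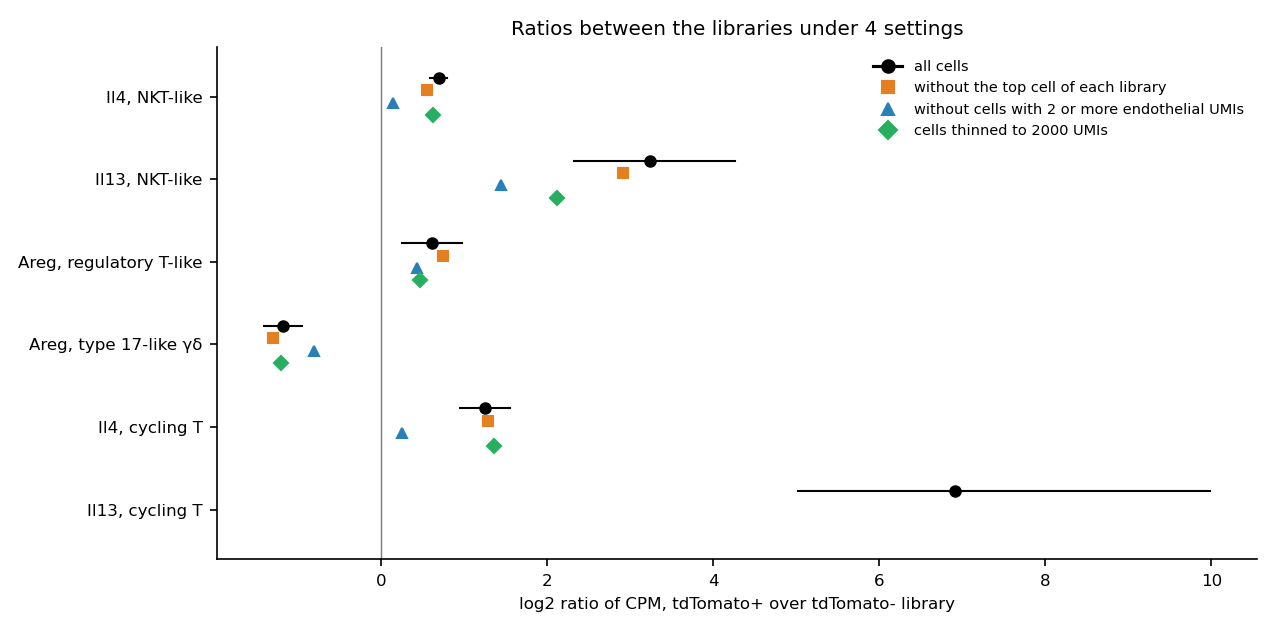
Log2 ratio of CPM, tdTomato+ over tdTomato- library, for 6 pairs of gene and cell group: all cells with the 95% interval, without the top cell of each library, without cells with 2 or more endothelial UMIs, and thinned to 2000 UMIs. *Il4* in NKT-like and cycling T cells lies near 0 without the cells with 2 or more endothelial UMIs. *Areg* in type 17-like γδ cells stays below 0 in all settings drawn. *Il13* in cycling T cells has a value for all cells alone, because the other settings leave no tdTomato- count.

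Among γδ T-like cells, *Areg* was highest in the type 17-like and proliferating clusters of the tdTomato- library. Type 17-like γδ cells, named from *Il17a*, *Il23r* and *Blk*, numbered 162 tdTomato+ and 1265 tdTomato-. Of these, 43 and 1021 had a *Trdc* UMI, so the γδ name is uncertain for most of the tdTomato+ cells. *Areg* gave 175 UMIs in 21 tdTomato+ cells, 13.0% (8.21 to 19.1), at 97.9 CPM (83.9 to 113). It gave 2802 UMIs in 280 tdTomato- cells, 22.1% (19.9 to 24.5), at 222 CPM (214 to 230). The Ncr1-like γδ cells, of like depth, had *Areg* in 0.0885% of 3391 tdTomato- cells at a median of 7491 UMIs, against medians of 10590 and 8755 UMIs in the type 17-like cells. After thinning, 7.64% and 12.5% of the type 17-like cells were positive.

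The log2 ratio of *Areg* in type 17-like γδ cells was -1.18 (-1.41 to -0.96). It was -0.81 among cells with under 2 endothelial UMIs, with 36 and 624 cells left. *Trdc*, the δ chain constant gene, was at 105 and 332 CPM, so the tdTomato+ part of the cluster was poorer in γδ receptor RNA. Among the 43 and 1021 cells with a *Trdc* UMI, *Areg* reached 115 CPM (86.2 to 151) against 229 CPM (220 to 238), a log2 ratio of -0.99 (-1.41 to -0.59). *Il17a* was lower in the same direction, at 588 and 3363 CPM, and *Hbegf*, another ligand of the epidermal growth factor receptor, was higher, at 164 and 51.7 CPM. *Adam17* was at 140 and 134 CPM.

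Proliferating γδ cells of the tdTomato- library had *Areg* at 189 CPM (176 to 202), with 844 UMIs in 72 of 165 cells, 43.6% (35.9 to 51.6). They were deep cells with a median of 27704 UMIs, and after thinning 13.0% were positive, close to the 12.5% of type 17-like cells. The 14 tdTomato+ cells gave 6 UMIs. Ncr1-like, Gzmk-like and *Klri1*-led γδ cells had 4, 4 and 1 *Areg* UMIs in the tdTomato- library and 0 in the tdTomato+ library. Naive-like γδ cells had 43 UMIs in 9 of 467 tdTomato- cells, 6.78 CPM (4.90 to 9.13), with 26 of the UMIs in 1 cell.

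Regulatory T cells are a known source of amphiregulin in injured tissue. The regulatory T-like cluster had 341 and 351 cells, of which only 96 and 77 had a *Foxp3* UMI, so the name holds for part of it. *Areg* gave 154 and 113 UMIs in 39 and 25 cells, 61.5 CPM (52.1 to 72.0) and 40.2 CPM (33.2 to 48.4), a log2 ratio of 0.61 (0.25 to 0.97). In cells with a *Foxp3* UMI its level was 167 CPM (140 to 198) against 77.9 CPM (58.7 to 101), in 29.2% and 18.2% of cells, and the ratio was 1.10. Cells without one had 10.1 CPM (5.87 to 16.1) against 27.6 CPM (20.9 to 35.7), with the ratio reversed at -1.45. The endothelial list was at 1234 and 315 CPM in the cluster, and its part in the result was not tested beyond the ratio of 0.44 among cells with under 2 endothelial UMIs.

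The *Tnfrsf4*-led T cells with endothelial RNA also carried *Areg*. They had 453 *Areg* UMIs and 57.0 *Areg* UMIs per 100 *Foxp3* UMIs, against 41.2 and 38.6 in the tdTomato+ and tdTomato- regulatory T-like clusters. This ratio was 107 and 54.2 in tdTomato+ and tdTomato- cycling T cells, so it is not particular to regulatory T-like cells. The *Tnfrsf4*-led cells also held the 21 *Il5* UMIs of these droplets, in 12 cells, of which 7 had *Areg*. The *Kcnq5*-led cells, rich in *Il4*, had 18 *Foxp3* and 20 *Areg* UMIs in 1530 cells, while the *Tnfrsf4*-led cells had 110 *Il4* UMIs in 1813 cells. The counts of *Areg* and *Il4* thus lay mostly in different clusters of these droplets.

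*Areg* in other groups was low or rested on 1 cell. In NK-like cells 67 of 72 tdTomato+ UMIs were in a cell with 3 *Gata3*, 3 *Il1rl1* and 5 *Ncr1* UMIs, and in B-like cells 58 of 74 tdTomato- UMIs were in a cell that also had 26 *Cd79a* and 3 *Cd3e* UMIs. Monocyte-like cells had 128 and 42 UMIs (10.9 and 6.99 CPM) and dendritic-like cells 37 and 46 UMIs (3.97 and 8.15 CPM). NKT-like and CD4 T-like cells had at most 6 UMIs per library. Shallow unnamed droplets, with median UMIs of 1780 and 1558, had *Areg* at 2.07 and 15.4 CPM, so some *Areg* RNA lay outside the named groups in the tdTomato- library.

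*Il2* had another distribution, thin and broad among γδ cells. Gzmk-like γδ cells had 14 UMIs in 13 of 83 tdTomato+ cells, 24.3 CPM (13.3 to 40.8), and 263 UMIs in 220 of 1775 tdTomato- cells, 20.7 CPM (18.3 to 23.4). Ncr1-like γδ cells had 10 UMIs in 9 of 73 cells, 16.4 CPM (7.86 to 30.1), and 401 UMIs in 332 of 3391 cells, 15.2 CPM (13.8 to 16.8). The *Klri1*-led cells were at 15.3 CPM and the naive-like cells, named from *Ccr7* and *Lef1*, at 11.0 CPM in the tdTomato- library. The intervals of neighbours in this order overlapped. The type 17-like cells were lower, at 1.12 CPM (0.135 to 4.04) and 1.11 CPM (0.606 to 1.86), as were the proliferating γδ cells, at 1.12 CPM (0.363 to 2.61) with 5 UMIs in 165 tdTomato- cells and 0 in 14 tdTomato+ cells.

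Positive cells seldom had more than 1 *Il2* UMI. The highest tdTomato+ cell had 7 UMIs and the highest tdTomato- cell 6. In the Gzmk-like γδ cells 12.4% (10.9 to 14.0) of tdTomato- cells were positive at a median of 6814 UMIs, against 0.676% of B-like cells at 5954 UMIs. Over all γδ T-like cells the tdTomato+ level was 8.14 CPM (5.53 to 11.6) and the tdTomato- level 12.4 CPM (11.6 to 13.3), a log2 ratio of -0.61 (-1.17 to -0.09). The ratios within the Gzmk-like (0.23, -0.66 to 1.00) and Ncr1-like (0.11, -0.96 to 1.00) clusters had intervals that included 0. The type 17-like cluster made up 162 of the 376 tdTomato+ and 1265 of the 7968 tdTomato- cells counted here, and 43 and 1021 of its cells had a *Trdc* UMI.

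Outside γδ cells, *Il2* was seen in the tdTomato+ innate lymphoid-like cells at 20.2 CPM (13.0 to 30.1), in 12 of 154 cells. The regulatory T-like cluster had 24 and 34 UMIs, every one in cells without a *Foxp3* UMI. In CD8 T-like cells *Il2* reached 5.18 CPM (3.79 to 6.91) against 1.79 CPM (1.23 to 2.52), a log2 ratio of 1.53 (0.86 to 2.22), and the *Cd8b1*-led cluster (14.4 and 5.16 CPM) held 43 of the 46 tdTomato+ and 26 of the 33 tdTomato- UMIs. CD4 T-like cells had 0 and 1 UMIs in 543 and 675 cells. NKT-like cells had 34 and 35 UMIs.

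The receptor contigs divided γδ T-like cells by chain use, and a cell could count under both a γ and a δ chain. In the tdTomato- library, *Areg* was detected in 53 of 222 γδ T-like cells with a TRDV5 contig, 23.9% (18.4 to 30). It was found in 6 of 78 cells with TRGV6 (7.69%, 2.88 to 16.0) and 46 of 758 with TRGV4 (6.07%, 4.48 to 8.01), but in 3 of 516 with TRGV1 (0.581%, 0.120 to 1.69). No cell of 115 with TRGV7 had it, which at 3 counts allows a share of cells with a UMI of up to 2.61%. *Areg* detection thus differed between chains by more than counting error.

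*Il2* had another order over the chains. It was detected in 21 of 93 cells with TRGV5, 22.6% (14.6 to 32.4), in 10.7% (8.58 to 13.1) with TRGV4 and in 9.5% (7.11 to 12.4) with TRGV1. With TRDV5 the share was 3.6% (1.57 to 6.98). *Il4* was in 0% to 2.17% of γδ T-like cells with each of the 9 chains that had 50 or more cells. Cells with a contig in the NKT-like cluster are not among these. Those with TRGV1, given above, had a much higher *Il4* share, so the low shares hold for the γδ T-like clusters only. Few tdTomato+ γδ cells had a contig, so the chains were not compared between libraries.

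**Figure D4:**
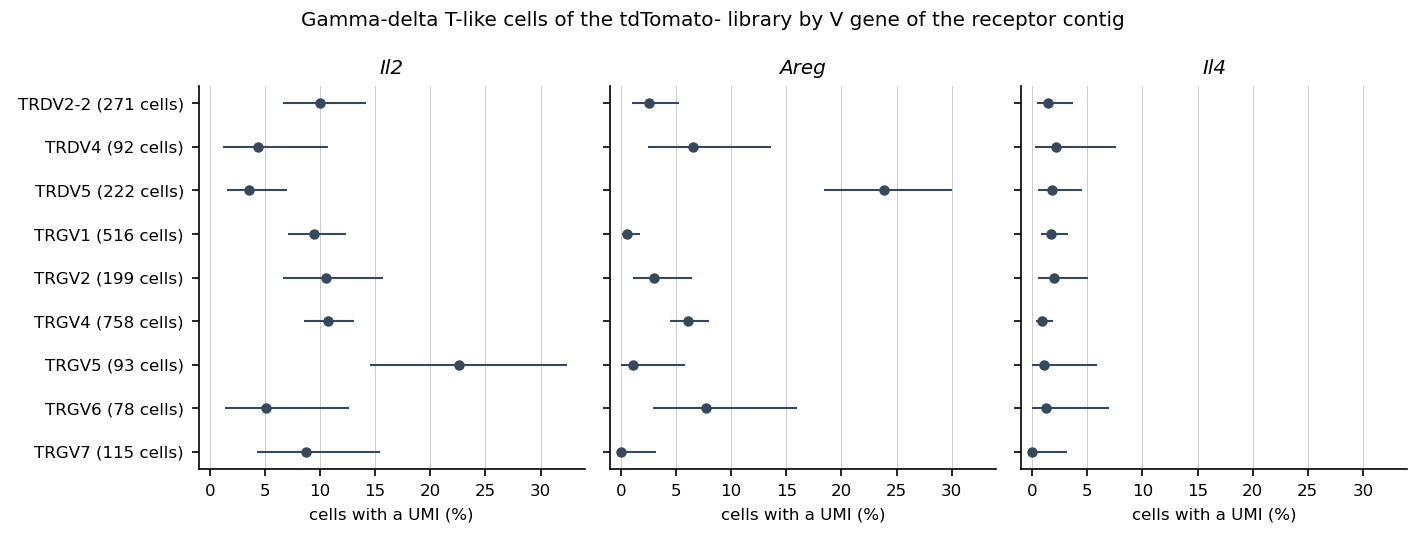
Share of tdTomato- γδ T-like cells positive for *Areg*, *Il2* and *Il4*, in percent with 95% binomial intervals, by the variable chain of their receptor contig. TRDV5 cells have the highest *Areg* share (23.9%) and TRGV5 cells the highest *Il2* share (22.6%), while *Il4* stays at or below 2.17%. Cells with a contig in the NKT-like cluster are not counted.

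Receptor genes for these signals differed in level between the groups. Over the 7 genes of the type 2 receptor list, 2 had at least 10 CPM in NKT-like cells, and none was 2-fold apart between the libraries there, in the regulatory T-like or in the type 17-like γδ cells. *Il4ra* was at 50.2 and 58.1 CPM in NKT-like cells and at 56.8 CPM in tdTomato+ endothelial-like cells, which also had *Il13ra1*, the second chain of the IL-13 receptor, at 134 CPM. *Csf2rb*, the common chain of the IL-5, IL-3 and GM-CSF receptors, was at 738 and 648 CPM in basophil-like cells, and *Il5ra*, the chain specific to IL-5, had 0 counts there. *Egfr* was at 0.09 CPM in endothelial-like cells, and *Il2rb* at 762 and 603 CPM in NKT-like cells.

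Regulators of the type 2 and cytokine genes were a list of 18 genes. Of these, 17 had at least 10 CPM in NKT-like cells and none was 2-fold apart, with a median log2 ratio of -0.13 against -0.0047 over all 8417 genes. *Gata3* was at 97.3 and 108 CPM in them. In basophil-like cells, *Gata2*, which basophils need, was at 866 and 855 CPM, while *Gata3* had 3 and 6 UMIs. In the regulatory T-like cluster 1 of 17 regulators, *Zbtb16*, was 2-fold lower in tdTomato+, and in type 17-like γδ cells *Irf4* was (42.5 and 98.0 CPM). Of the 10 immediate early genes, which tissue dissociation induces, 2 were 2-fold lower in tdTomato+ NKT-like cells, *Jun* and *Egr1*, and *Atf3* was 2-fold higher in tdTomato+ type 17-like γδ cells.

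The genes most like each member were found by Pearson correlation of log2(CPM + 1) over 45 points, the 25 groups with at least 20 cells in either library, among 13052 genes. The points share libraries and depth, and the values are a description. *Il5* and *Il13* did not themselves reach the level asked of the compared genes (10 CPM in a group of each library) and were at 0 in many points, so their values rest on few groups. *Kcnq5* (0.643) and *Bmp7* (0.616) were most like *Il4*. *Ccdc184* (0.734), *Calca* (0.676) and *Il1rl1* (0.669) were most like *Il5*, and *Il1rl1* (0.789) and *Il4* (0.706) most like *Il13*. *Gm36496* (0.833), *Abcb9* (0.831) and *Cipc* (0.827) were most like *Il2*, and *Or13a27* (0.821), *Gm49890* (0.796) and *Ccr8* (0.782) most like *Areg*.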

How the data were processed

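Single-cell 5′ libraries (10x Genomics Chromium, per the labels) of 1 tdTomato+ and 1 tdTomato- sort were processed by the authors with Cell Ranger (version 10.0.0 per the file headers), and the submitters' processing notes name the mm10 build. The deposited matrices hold raw UMI counts per gene and barcode, and the deposited receptor tables hold contigs with their UMI counts. Barcodes with at least 300 genes and at most 10% mitochondrial UMIs were kept. Counts were scaled to 10000 per cell, and 2000 variable genes without the 5 members, 30 principal components and 15 neighbours gave 43 Leiden clusters at resolution 1 (scanpy 1.11.5, leidenalg 0.10.2, python 3.11.15, scipy 1.17.1). Cluster names came from marker lists, with naming limits set after the clusters were seen. No doublet caller was run and no doublets were removed; an alternative left out cells above 3 times the median UMIs.

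Levels are CPM of summed UMIs. Genes named outside the members were those with the highest correlation to a member, or the list genes with the highest level or largest library difference; leading genes of clusters, the receptor subsets and the genes given for single droplets were chosen after their values were seen. Members and lists were chosen with earlier results of these data known. The ratio script was tested on simulated data. The alternatives comprised 13 planned and 5 chosen after seeing the data.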

Additional observations from a re-analysis of the deposited data

Results flagged for a closer look

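For *Il4* and *Areg*, cell groups moved in opposite directions between the same libraries, and the difference between groups was not tested. The log2 ratio of *Il4*, tdTomato+ over tdTomato-, was 0.69 in NKT-like and 1.25 in cycling T cells but -3.47 in macrophage-like cells, where 81 of the 92 tdTomato- UMIs lay in 1 droplet. The log2 ratio of *Areg* was 0.80 in cycling T, 0.64 in monocyte-like and 0.61 in regulatory T-like cells but -1.04 in dendritic-like and -1.18 in type 17-like γδ cells.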

How the results depend on the processing

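No ratio changed sign under these alternatives, while subsets given above did. *Il4* was at -0.16 by the *Trav11* gate and at -1.04 in the cells of that gate within the NKT-like cluster. It was also at -1.04 in NKT-like cells with both receptor types. *Areg* was at -1.45 in regulatory T-like cells without a *Foxp3* UMI. Of the values that answer a comparison, 93 stayed within their counting interval and 29 moved outside it, and of the others 59 stayed and 31 moved. Below, cells with endothelial RNA are those with 2 or more endothelial UMIs. The log2 ratio of *Il4* in NKT-like cells (0.69) was 0.56 with the members allowed among the variable genes, 0.52 as a mean of per-cell CPM, 0.55 without the top cell of each library, 0.14 without cells with endothelial RNA and 0.52 with αβ receptor cells only. The tdTomato+ level behind it was 329 CPM at resolution 2, 329 with the members allowed, 288 as a per-cell mean, 276 without the top cell and 222 without cells with endothelial RNA, and the tdTomato- level was 223 with the members allowed and 224 with αβ receptor cells only. *Il13* in NKT-like cells had ratios of 2.12 (thinned to 2000 UMIs, with 2 positive cells in each library) and 1.44 (without endothelial RNA). *Areg* had 1.10 in regulatory T-like cells with a *Foxp3* UMI and -0.81 in type 17-like γδ cells without endothelial RNA. *Il4* in cycling T cells had 1.56 at resolution 0.5 and 0.25 without endothelial RNA. In tdTomato+ innate lymphoid-like cells, *Il5* was at 113 CPM thinned and 166 CPM without endothelial RNA, *Il13* at 265 (per-cell mean), 276 (no top cell) and 273 CPM (thinned), and *Areg* at 543 (per-cell mean) and 541 CPM (no top cell). *Il2* in tdTomato- γδ T-like cells was at 13.3 CPM at resolution 0.5, 13.9 as a per-cell mean, 13.4 thinned and 14.6 without endothelial RNA. The choices with αβ receptor cells, *Foxp3* or *Trdc* UMIs, and without shared barcodes were added after seeing the data; requiring a *Trdc* UMI and no αβ receptor UMI left 35 tdTomato- and no tdTomato+ type 17-like cells.

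No paired analysis was possible because each sort has 1 library, and for the same reason no replicate was left out. Sort, batch and library cannot be told apart, intervals cover counting error only, and groups with under 20 cells in a library (9 innate lymphoid-like and 8 basophil-like tdTomato- cells) carry wide intervals.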

Other observations

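Erythroid-like cells of the tdTomato+ library had *Il4* at 15.7 CPM (10.8 to 22.1), 33 UMIs in 16 of 113 cells, and those of the tdTomato- library 4 UMIs in 42 cells. Hepatocyte-like cells of the tdTomato+ library gave 9 *Il4* UMIs, 8 of them in 1 of 29 cells. Neutrophil-like cells gave 18 *Il4* UMIs in 6 of 336 tdTomato+ cells and 0 in 215 tdTomato- cells. The 80 kept barcodes present in both libraries had 17 and 5 *Il4* UMIs and 3 and 32 *Areg* UMIs.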
